A study of Mus musculus with 12 samples.

Results

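Mgmt and 6 other genes that deal with alkylated DNA, Alkbh1, Alkbh2, Alkbh3, Mpg, Msh6 and Pms2, were followed across 4 groups of mouse bone marrow-derived macrophages. The 7 genes were chosen by symbol, for their role, and make up 7 of the 16516 gene symbols in the deposited tables. They and the gene lists used below were chosen with earlier results of these data known. The study asked how the DNA repair protein MGMT and signalling through STING, the adaptor of cytosolic DNA sensing, affect each other in macrophages. Cells came from mice of the genotype Wild-type (WTfl/fl), called WT here, or MGMT KO, called KO here, and were kept for 24 h in DMSO, the vehicle, or in DMXAA, an agonist of mouse STING, which the design text gives at 10 mg/ml. Each combination has 3 RNA-seq libraries, 12 in all, and all carry the same batch label. The labels do not name the allele that removes Mgmt in the KO or any Cre driver, and do not say whether the 3 libraries of a group came from separate mice. The p-values therefore measure only the spread between these libraries, which may be technical.

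As background, alkylating agents, some of them made by the cell itself, leave methyl groups on DNA bases. MGMT moves the alkyl group of O6-methylguanine onto its own cysteine and is used up in doing so, which makes its amount a limit on this repair. The ALKBH dioxygenases oxidise methyl groups off adenine and cytosine, MPG cuts out methylated purines as the first step of base excision repair, and MSH6 and PMS2 serve the mismatch repair system, which reads O6-methylguanine paired with thymine and can trigger a damage response. In dividing cells this last route depends on replication, and many of its parts are also parts of the replication machinery.

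Libraries held 79.5 to 98.1 M (mega) reads in listed genes, and the 7 genes were tested in every comparison. The cells carried the defining macrophage markers: all 8 of the macrophage list were present, with summed levels of 20400 to 20900 reads per M reads (RPM) in WT under DMSO, 16600 to 17400 in KO under DMSO, 11500 to 11700 in WT under DMXAA and 9390 to 9480 in KO under DMXAA. Of these 8, Lyz2 alone ran from 2110 to 11200 RPM over the 12 libraries. At an adjusted p below 0.05 by limma, 2 of the 8 rose with DMXAA and 5 fell in WT. In KO 2 rose and 6 fell. Over all tested genes 62.8% passed in WT and 66.6% in KO. Markers of other cells were low. Summed neutrophil markers reached 5.47 to 7.75 RPM in WT under DMSO and 0.744 to 1.28 in KO under DMSO, and stromal markers 0.163 to 0.511 and 0.586 to 5.13. The sums of B cell, T and NK cell, erythroid, and mast cell and basophil markers stayed at or below 1.98, 0.065, 0.0917 and 0.852 RPM in every library. Some markers of these lists, Elane, Cd3d, Trac and Mcpt8 among them, were not analysed here. Dendritic cell markers reached 4.88 under DMXAA, nearly all of it Xcr1 (up to 4.84). In bulk RNA, fewer cells of a type and less RNA per cell cannot be told apart.

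The 2 members whose RNA moved most were Mgmt and Msh6, and their promoters are shown to let a reader compare them. Both are from the RefSeq promoter table for GRCm38.p6, in which all 7 members have an entry, and each run covers 250 bases before to 30 bases after the listed start, 5′ to 3′ on the gene's own strand. For Mgmt the capitals mark GC boxes, the GGGCGG element bound by Sp factors, here on the opposite strand and so read as CCGCCC. For Msh6 they mark the match to the E2F element, searched as TTTNNCGC. The Mgmt run is chr7:136894336-136894615 and the Msh6 run is chr17:87974800-87975079, both on the plus strand.
Mgmt: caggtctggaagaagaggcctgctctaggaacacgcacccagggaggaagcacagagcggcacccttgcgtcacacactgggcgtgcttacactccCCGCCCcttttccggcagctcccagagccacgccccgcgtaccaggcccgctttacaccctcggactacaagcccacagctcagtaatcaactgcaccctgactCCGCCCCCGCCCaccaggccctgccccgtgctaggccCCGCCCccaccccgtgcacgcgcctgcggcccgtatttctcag
Msh6: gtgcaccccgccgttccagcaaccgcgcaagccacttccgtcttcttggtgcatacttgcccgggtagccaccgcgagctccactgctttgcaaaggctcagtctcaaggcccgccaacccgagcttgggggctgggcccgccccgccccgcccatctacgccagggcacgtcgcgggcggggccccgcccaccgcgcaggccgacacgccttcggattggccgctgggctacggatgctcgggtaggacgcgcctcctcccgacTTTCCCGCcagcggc

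Mgmt had 4 GC boxes, at -154, -50, -44 and -13 from the start, the middle pair back to back, and no CCAAT box, E2F element or interferon-stimulated response element (ISRE, searched as GAAA repeated after a gap of 2 bases). Msh6 had 5 GC box matches, at -112, -107, -102, -75 and -65, 1 CCAAT box at -34 and 1 E2F element at 16. Its matches at -112, -107 and -102 overlap, each sharing a base with the next, so they are not separate boxes. Both strands were searched. Of 32851 promoters of this length in the table, 34.7% held a GC box, 36.1% a CCAAT box, 4.84% an E2F element and 3.28% an ISRE. Among the other members, Alkbh1 held a match to the letters searched for E2F at -248. It reads TTTTACGC, against TTTCCCGC in Msh6. Alkbh2, Mpg and Pms2 held GC boxes, and Mpg and Pms2 CCAAT boxes. None of the 7 windows matched the ISRE letters. The Mgmt window had 20 CpG dinucleotides, more than 76.6% of promoters, and the Msh6 window 32, more than 92.7%. A match is a description of letters, not a measured binding site.

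Compared per exon length, in reads per kilobase of exon per M reads, the 7 genes differed widely in WT cells under DMSO. Alkbh3, which repairs single-stranded DNA and RNA, was highest at 4.63 ± 0.45 (SD, n = 3), followed by Alkbh2, its counterpart for double-stranded DNA, at 3.52 ± 0.18 and Msh6 at 2.60 ± 0.327. Mgmt came next, at 0.982 ± 0.0689, followed by Mpg at 0.796 ± 0.0835, Alkbh1, a mitochondrial and tRNA demethylase, at 0.529 ± 0.0238 and Pms2, a mismatch repair endonuclease, at 0.395 ± 0.0443. No 2 neighbours in this order overlapped between their 3 libraries.

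Mgmt moved furthest down this order. In KO under DMSO it stood below Mpg, at 0.567 ± 0.12, where its 0.471 to 0.701 overlapped Alkbh1 at 0.461 to 0.522. In WT under DMXAA it stood below Alkbh1 as well, at 0.383 ± 0.058, overlapping Pms2 at 0.328 to 0.363. In KO under DMXAA it was the lowest of the 7, at 0.173 ± 0.0495, and its highest library (0.22) lay below the lowest of Pms2 (0.226). The first 3 places stayed with Alkbh3, Alkbh2 and Msh6 in all 4 groups. Exon lengths are unions over annotated transcripts, and they run from 1115 bases for Alkbh2 (3 transcripts) and 2894 for Mgmt (1 transcript) to 8117 for Pms2 (13 transcripts), so a gene with many annotated transcripts is placed lower by its length.

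**Figure D1:**
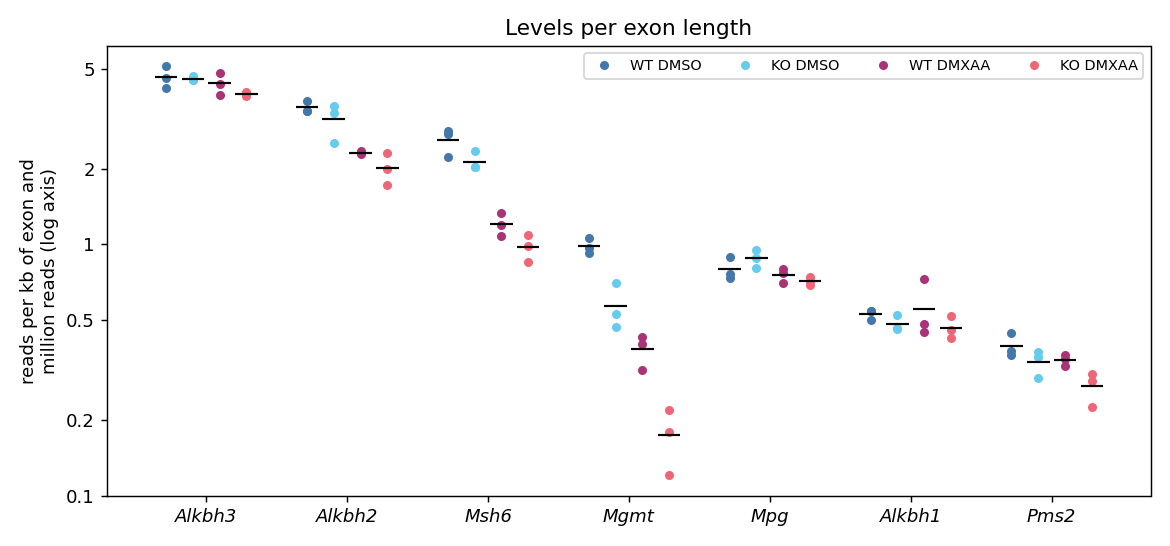
Reads per kilobase of exon per M reads (log axis) for the 7 genes, ordered by their level in WT under DMSO; points are libraries, coloured by group, and bars are group means of 3. Mgmt falls from 0.982 in WT under DMSO to 0.173 in KO under DMXAA, while Alkbh3 stays between 3.98 and 4.63.

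Mgmt encodes the O6-methylguanine methyltransferase and is the gene targeted in the KO. It lies on chromosome 7 of GRCm38 (136894614 to 137130266, plus strand) with 5 exons in 1 annotated transcript. Under DMSO its normalized counts, reads divided by the size factor of each library, were 248, 233 and 269 in WT and 118, 131 and 178 in KO. All KO libraries lay below all WT libraries, so Mgmt RNA was reduced but present, at a fitted 0.562 of the WT level. On the log2 scale KO differed from WT by -0.83 (SE 0.166, 95% interval -1.20 to -0.47, adjusted p = 0.00566 by limma). Of all 12814 genes tested here, 16.6% were called at an adjusted p below 0.05, 7.04% higher and 9.58% lower in KO.

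Under DMXAA the 2 genotypes were again apart. Normalized counts were 111, 83.2 and 105 in WT and 48.1, 59.4 and 32.8 in KO. The lowest WT library stood above the highest KO library, and the fitted level in KO was 0.463 of that in WT (log2 -1.11, SE 0.247, 95% interval -1.66 to -0.56, limma adjusted p = 0.00905). In this comparison 21.5% of 12499 genes were called, 10.7% higher and 10.8% lower. These KO values rest on 33 to 61 reads of Mgmt a library, against 85 to 107 in WT. The tables count reads per gene, so which exons the remaining reads cover was not measured.

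DMXAA lowered Mgmt in each genotype. In WT it went from 222, 208 and 241 under DMSO to 120, 90.5 and 114 under DMXAA, with no overlap (log2 -1.04, SE 0.153, limma adjusted p = 0.000194). In KO it went from 108, 120 and 164 to 53.6, 66.4 and 36.6, again with no overlap (log2 -1.32, SE 0.254, limma adjusted p = 0.000971). DMXAA moved most of the transcriptome: 62.8% of 12752 genes were called in WT (31.7% higher, 31.1% lower) and 66.6% of 12704 in KO (33.7% higher, 32.9% lower), so a call in these comparisons is not by itself unusual. The size of the fall depends on the scaling. With libraries brought to the same total it was -1.36 in WT and -1.71 in KO, and the median of all genes then moved to -0.322 and -0.393; relative to that median the falls were close to those as deposited. With the same upper quartile the median moved to -0.111 and -0.129.

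The fall in KO differed from the fall in WT by -0.28 on the log2 scale (95% interval -0.94 to 0.38, limma adjusted p = 0.673 for the interaction), so the interval holds both a smaller and a clearly larger relative fall in KO. None of the 7 genes was called for this interaction by limma, against 8.6% of 12729 genes. None of the 7 reached an unadjusted p below 0.05 by limma, edgeR or DESeq2 either.

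**Figure D2:**
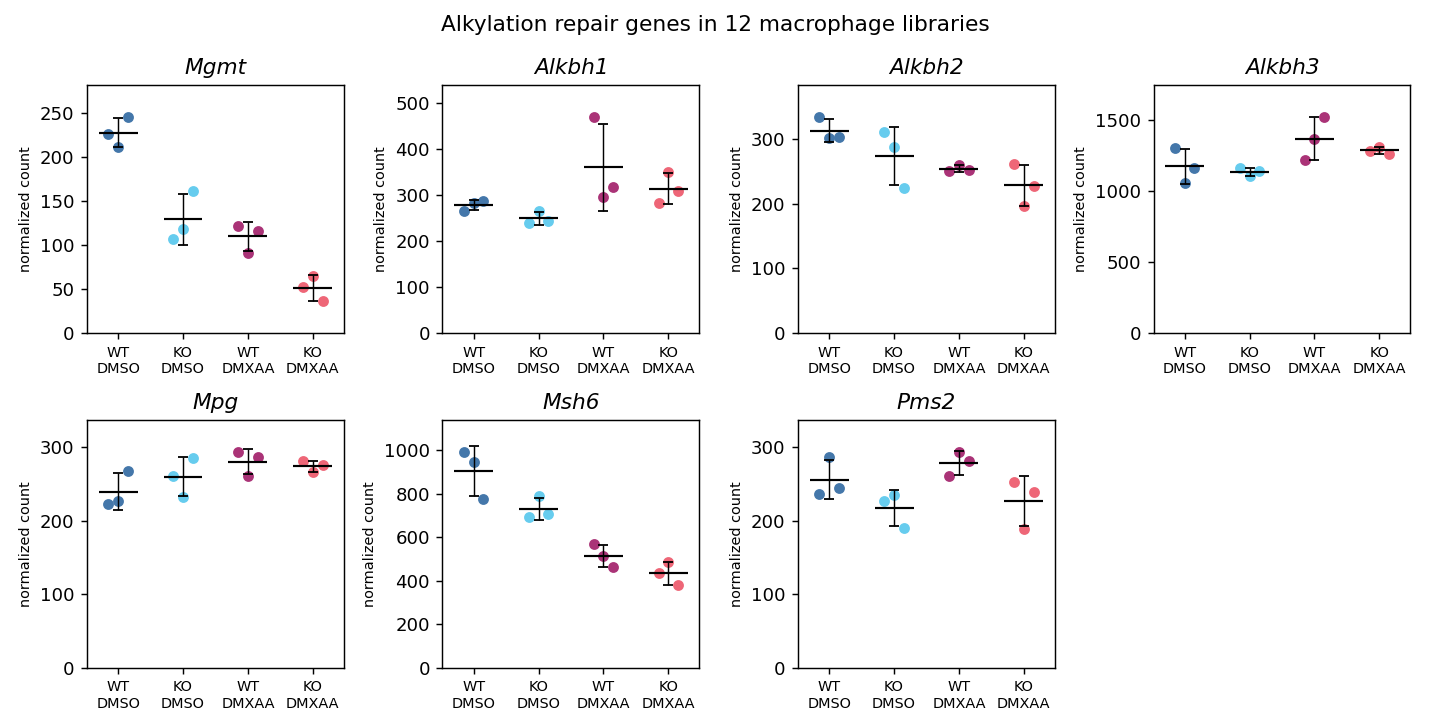
Normalized counts (linear axes from 0) of the 7 genes in the 12 libraries, with all libraries on 1 scale; points are libraries, bars group means and whiskers SD (n = 3). Mgmt and Msh6 are lower under DMXAA in both genotypes, and Mgmt is the 1 of 7 genes called between KO and WT under both treatments.

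Msh6 encodes a protein that recognises base mismatches, O6-methylguanine opposite thymine among them. Its locus is chromosome 17, 87975062 to 87990892. In WT its normalized counts were 974, 927 and 760 under DMSO and 561, 508 and 460 under DMXAA, and in KO they were 702, 800 and 713 and then 442, 497 and 386. Every DMXAA library lay below every DMSO library of its genotype. The log2 change of Msh6 was -0.80 in WT (SE 0.114, limma adjusted p = 0.000172) and -0.75 in KO (SE 0.108, limma adjusted p = 0.000139). The 2 falls differed by 0.05 (95% interval -0.31 to 0.40). With libraries brought to the same total the changes were -1.11 and -1.13.

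Between the genotypes Msh6 did not pass the test. Under DMSO its normalized counts were 1091, 1040 and 851 in WT and 764, 874 and 774 in KO. The highest KO library lay above the lowest WT library, and the log2 difference was -0.30 (SE 0.105, limma adjusted p = 0.0778). This value sat close to the threshold: it was called without WT library 3 under DMSO (-0.41, adjusted p = 0.0207) and by DESeq2 on recovered reads (adjusted p = 0.0476). Under DMXAA the counts of 519, 467 and 424 in WT and 396, 444 and 346 in KO overlapped as well (log2 -0.25, SE 0.116, limma adjusted p = 0.155).

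Pms2, on chromosome 5 (143909964 to 143933968), encodes the subunit that nicks the strand once a mismatch is bound. Under DMSO its normalized counts were 260, 316 and 269 in WT and 250, 260 and 208 in KO, and under DMXAA 239, 267 and 257 against 230, 171 and 217. The KO libraries lay below the WT libraries in both cases, under DMSO by less than a count, but the differences of -0.24 (SE 0.133, limma adjusted p = 0.271) and -0.31 (SE 0.134, limma adjusted p = 0.132) were not called. With DMXAA it changed by 0.14 in WT (95% interval -0.13 to 0.40) and 0.06 in KO (-0.27 to 0.39), unlike Msh6. Its exons share 394 bases with Gm42421 and 85 with Rsph10b on the same strand, neither of them analysed here.

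The 3 dioxygenases showed small changes of different sign. Alkbh2, on chromosome 5 (114123926 to 114128218), protects double-stranded DNA. In WT it stood at 329, 297 and 299 normalized counts under DMSO and 248, 259 and 250 under DMXAA, without overlap, and it fell by 0.29 on the log2 scale (SE 0.103, limma adjusted p = 0.0343). That call was lost without any 1 of the 6 libraries, when it ranged from -0.24 to -0.31, and by DESeq2 (adjusted p = 0.0801). In KO the counts of 315, 292 and 227 and then 266, 200 and 232 overlapped (log2 -0.25, SE 0.156, limma adjusted p = 0.181). With libraries brought to the same total the changes were -0.60 and -0.64, both called. Alkbh2 shares 329 of its 1115 exon bases on the opposite strand with Usp30, which was not called in any comparison. The part of Usp30 reads in the Alkbh2 counts was not tested.

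Alkbh3, on chromosome 2 (93980550 to 94010807), had the most reads of the 7. Its exons share 172 bases on the same strand with Gm27027, which was not analysed here. In KO Alkbh3 rose from 1171, 1120 and 1152 normalized counts to 1305, 1333 and 1285, with no overlap and a small size (log2 0.19, SE 0.0623, limma adjusted p = 0.0212). In WT the counts of 1277, 1038 and 1138 and then 1205, 1353 and 1500 overlapped (log2 0.23, SE 0.102, limma adjusted p = 0.0701). The direction rests on the scaling: with the same upper quartile the KO change was 0.06 and not called, and with the same total it was -0.20 and called lower. The call was also lost without KO library 2 under DMSO (adjusted p = 0.0596) or KO library 2 under DMXAA (adjusted p = 0.0617), by limma.

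Alkbh1, on chromosome 12 (87425840 to 87444017), followed the same pattern. In KO it rose from 241, 269 and 246 to 288, 356 and 313 normalized counts (log2 0.34, SE 0.118, limma adjusted p = 0.0278). In WT the counts went from 261, 278 and 281 to 463, 292 and 313, and the single library at 463 set much of the difference (log2 0.35, SE 0.165, limma adjusted p = 0.0905). The KO change became -0.05 with libraries brought to the same total and 0.21 with the same upper quartile, neither called, and the call was lost without KO library 1 or 3 under DMSO and without KO library 2 or 3 under DMXAA, and by DESeq2 (adjusted p = 0.0533). Alkbh1 shares 122 exon bases on the opposite strand with Slirp, which encodes an RNA-binding protein and rose by 0.91 in WT and 0.96 in KO. Whether the counting used strand is not given in the sources used here, and the part of Slirp reads in the Alkbh1 counts was not tested. Usp30, above, Slirp and, below, Nprl3 were chosen as overlapping genes after their values were seen.

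Mpg, on chromosome 11 (32226505 to 32232700), encodes the alkyladenine glycosylase, and it passed no test as deposited. Its normalized counts were 245, 249 and 295 in WT and 287, 258 and 314 in KO under DMSO (log2 0.12, 95% interval -0.16 to 0.40), and 268, 238 and 261 against 256, 242 and 250 under DMXAA (log2 -0.03, 95% interval -0.27 to 0.20). With DMXAA it changed by 0.24 in WT (SE 0.12, limma adjusted p = 0.104) and 0.09 in KO (SE 0.115, limma adjusted p = 0.507). In KO the sign depended on the scaling, at -0.036 once upper quartiles were matched and -0.30 once totals were, the latter called lower. Mpg shares 1340 exon bases with Nprl3 on the opposite strand, the largest such overlap among the 7 genes. Nprl3 was lower in KO under DMSO (-0.31), where Mpg was not called. The part of Nprl3 reads in the Mpg counts was not tested.

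Between the genotypes, then, Mgmt was the 1 of 7 genes called under each treatment, while the intervals of the other 6 reached from -0.61 to 0.40. Those of Msh6 under DMSO (-0.53 to -0.07) and Pms2 under DMXAA (-0.61 to -0.013) were wholly negative. The intervals are not adjusted for the number of genes tested. With DMXAA 3 of 7 were called in WT, all lower, against 62.8% of all tested genes, and 4 of 7 in KO, 2 higher and 2 lower, against 66.6%, so these counts do not set the members apart. The balance in KO rests on the scaling: with the same upper quartile only Mgmt and Msh6 were called, both lower, and with the same total 5 were called, all lower. Mgmt and Msh6 kept their call and direction in both responses under every scaling, tool, block and left-out library that was run.

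**Figure D3:**
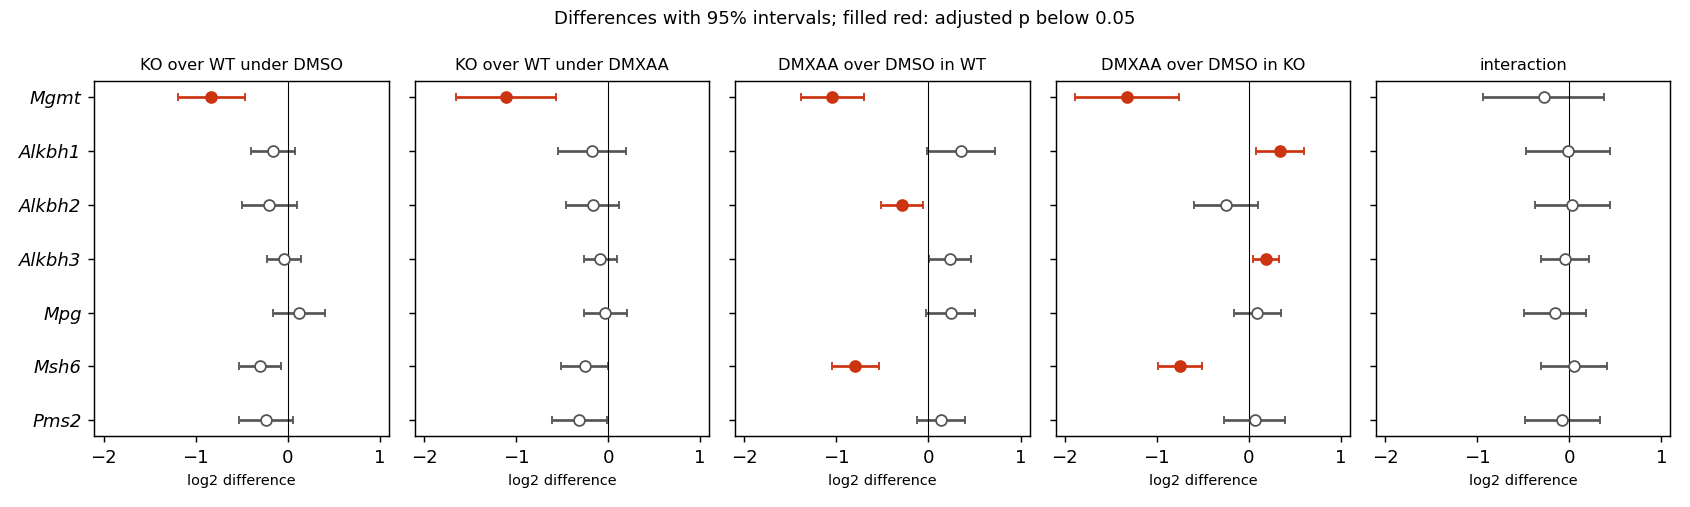
Log2 differences of the 7 genes with 95% intervals in the 4 comparisons and for the interaction; filled red points have an adjusted p below 0.05. Mgmt is called in all 4 comparisons (-0.83, -1.11, -1.04 and -1.32), Msh6 in both responses to DMXAA, and none of the 7 for the interaction.

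**Figure D4:**
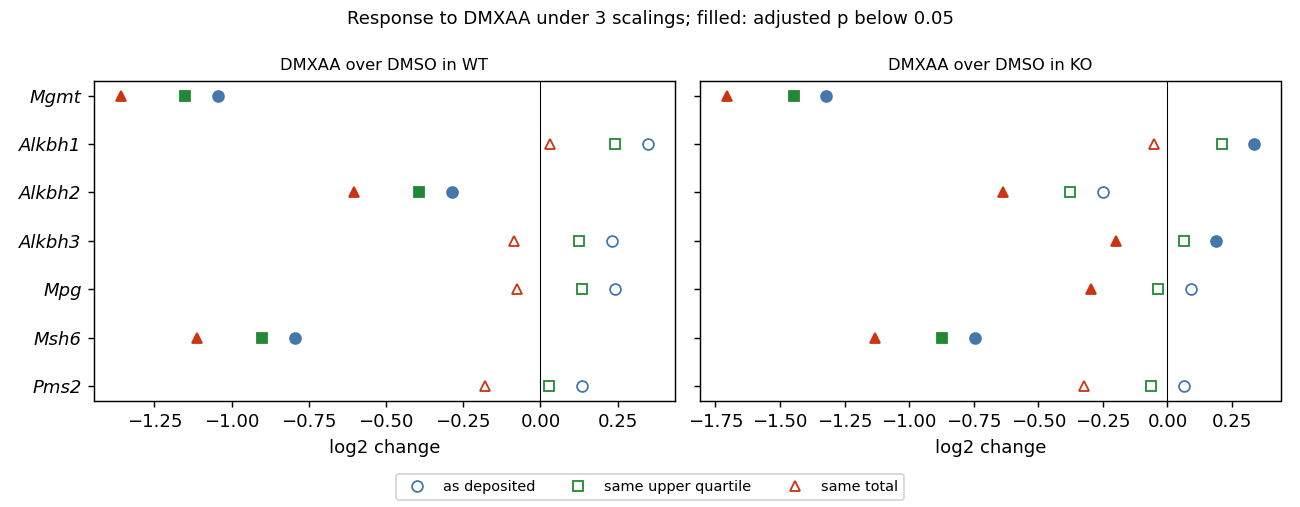
Log2 changes with DMXAA of the 7 genes with libraries as deposited and under each of the 2 rescalings; filled symbols have an adjusted p below 0.05. Mgmt and Msh6 lie left of 0 under all 3, while Alkbh3 in KO goes from 0.19 to -0.20.

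The rest of the pathway was read from 6 lists, which with the 7 genes make 68, all of them tested in each comparison. These lists, and the replication list below, were chosen with earlier results of these data known. Their counts are therefore a description and not a test. In KO under DMSO 16 of the 68 were lower and none higher, where 9.58% of all tested genes were lower and 7.04% higher, with a median log2 difference of -0.09 against 0.0054 for all tested genes. Under DMXAA 13 were lower and 2 higher, beside 10.8% and 10.7% of all tested genes, with a median of -0.10 against -0.0020. The dioxygenases and the ASCC complex, a helicase complex that works with ALKBH3, had 0 of 9 and 0 of 4 called under each treatment by limma as deposited. With the same total Alkbh5 was called higher under DMSO (0.25, limma adjusted p = 0.0433) and Ascc2 lower under DMXAA (-0.22, limma adjusted p = 0.0479).

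In the mismatch repair list, 9 of 19 genes were lower in KO under DMSO and none higher (median -0.30). The sliding clamp Pcna stood at 23858, 23336 and 21066 normalized counts in WT and 12874, 13565 and 12438 in KO (log2 -0.81, SE 0.0599, limma adjusted p = 1.02e-05). The DNA ligase Lig1 (-0.77) and the exonuclease Exo1 (-1.75) were lower too, at limma adjusted p of 9.33e-05 and 0.000363. Under DMXAA 7 were lower and 2 higher (median -0.25). Lig1 (-0.73) and the clamp loader subunits Rfc5 (-0.60) and Rfc1 (-0.19) were among the lower genes. The 2 higher genes were Msh3, which serves the repair of small insertion and deletion loops, at 0.38 (limma adjusted p = 0.00771) and Pcna at 0.30 (limma adjusted p = 0.00109). Pcna therefore lay below WT under DMSO and above WT under DMXAA.

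Of 11 glycosylases, Ung, which removes uracil, and Neil3, which acts on oxidised bases in single strands, were lower in KO under both treatments. Ung differed by -1.47 in each case (limma adjusted p = 0.00142 and 0.00976) and Neil3 by -1.54 and -2.49 (limma adjusted p = 0.00144 and 0.00234). The other 9 were not called. Over all tested genes 16.6% were called under DMSO and 21.5% under DMXAA, so 2 of 11 is near the share of all genes. Of 12 genes that act after the glycosylase, the flap endonuclease Fen1 was called lower under DMSO (-0.40, limma adjusted p = 0.00303), and none under DMXAA. Of 12 genes of the checkpoint response, Clspn and Chek1, which encode the adaptor and the kinase of the ATR branch, were lower under DMSO (-1.47 and -1.58) and under DMXAA (-1.88 and -1.81). Topbp1 was lower under DMSO (-0.34). Trp53, which encodes p53, was lower under DMXAA (-0.19, limma adjusted p = 0.00796). Under DMSO Trp53 differed by a like amount without a call (-0.18, limma adjusted p = 0.0578).

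As background, Pcna, Lig1, Exo1, Fen1, Chek1 and Clspn also serve DNA replication. All 16 genes of a separate replication list, which shares Pcna, were lower in KO under DMSO (median -1.03), and 12 were lower and 1, Pcna, higher under DMXAA (median -0.64). The summed level of this list was 735 to 860 RPM in WT and 395 to 447 in KO under DMSO, and 453 to 477 and 417 to 434 under DMXAA. Mgmt and this sum were thus both lower in KO under each treatment, and both lower with DMXAA in WT. With DMXAA in KO the ranges of the sum, 395 to 447 and 417 to 434, overlapped, while Mgmt fell. This sum includes Pcna, a gene of high counts that rose there, and the sum without Pcna was not computed. The overlap therefore does not describe most genes of the list. As deposited, 8 of the 16 genes were called lower there and 4 higher. The 4 higher were Pcna (1.001), Gins1 (0.86), Cdt1 (0.78) and Mcm6 (0.31). With the same total, the scale of this sum, 11 of the 16 genes were lower and 3 higher in KO (median -0.69), and Mgmt changed by -1.71. The part of cell division in the Mgmt values was not tested.

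**Figure D5:**
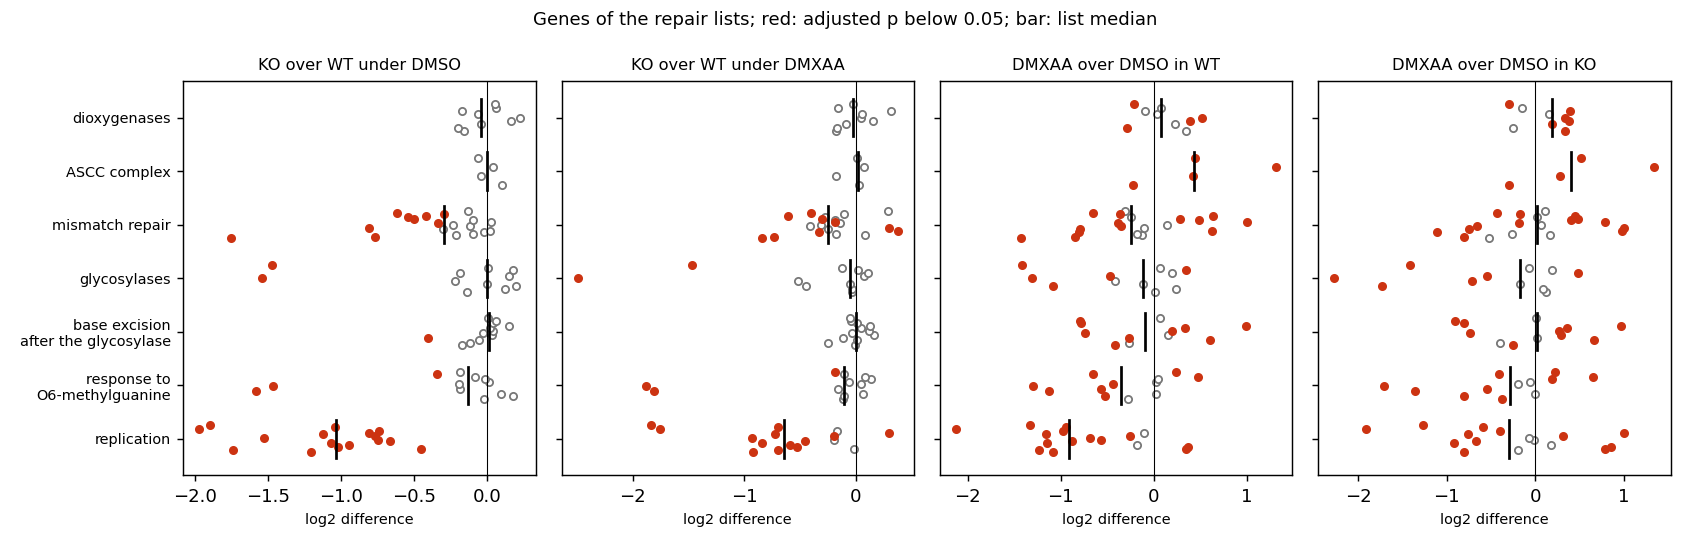
Log2 differences of every gene in the 6 repair lists and the replication list for the 4 comparisons; each point is a gene, red points have an adjusted p below 0.05 and bars are list medians. In KO under DMSO the called repair genes all lie left of 0, and the replication list has a median of -1.03.

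With DMXAA the pathway split in both directions. In WT 17 of 68 genes were higher and 27 lower (median -0.12), and in KO 23 were higher and 25 lower (median -0.03). Over all tested genes 31.7% were higher and 31.1% lower in WT, and 33.7% and 32.9% in KO, so the share of the pathway called was near that of all genes. With the same total these counts became 8 higher and 45 lower in WT and 7 and 45 in KO, and with the same upper quartile 14 and 32, and 16 and 31. Over all called genes the share that was higher went from 50.5% in WT and 50.6% in KO to 22.3% and 20.3% with the same total and 39.2% and 38.6% with the same upper quartile. Where a rescaling ended the call of a gene named below, this is stated beside it.

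Among the dioxygenases Alkbh5, which demethylates adenine in RNA, rose by 0.51 in WT and 0.34 in KO, and Alkbh4 by 0.39 and 0.38. Fto, another RNA demethylase, fell (-0.21 and -0.30). Alkbh7 was called higher in KO (0.39). With the same total Alkbh4 in both genotypes, and Alkbh5 and Alkbh7 in KO, were no longer called. Of the ASCC complex, the helicase gene Ascc3 went from 1780 ± 46.8 to 4429 ± 163 normalized counts in WT (log2 1.31, SE 0.0563, limma adjusted p = 2.1e-08) and rose by 1.34 in KO. Trip4 rose by 0.44 and 0.52 and Ascc2 by 0.42 and 0.28, while Ascc1 fell (-0.22 and -0.30). The rises of Trip4 and Ascc2 were not called with the same total, nor that of Ascc2 in KO with the same upper quartile.

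In the mismatch repair list, of 19 genes, 5 rose and 8 fell in WT, and 6 rose and 7 fell in KO. The share called was near that of all tested genes, 62.8% in WT and 66.6% in KO. Msh3 rose by 0.62 and 0.98, while Msh6 fell. Lig1 fell (-0.85 and -0.81). Exo1 fell by 1.43 in WT, and in KO it changed by -0.52 without a call. Rfc1 went from 7212 ± 194 to 14428 ± 284 normalized counts in WT and rose by 0.78 in KO, and Rfc5 rose by 0.63 and 0.44, the latter in KO not called with the same total. Pcna did not pass the test in WT as deposited (-0.11, limma adjusted p = 0.135), was called lower there under either rescaling (-0.21 at the same upper quartile, -0.42 at the same total), and rose in KO (1.001), from 11832, 12422 and 11451 to 23230, 24848 and 23366 normalized counts.

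The interaction called 2 of the 68 pathway genes, both from this list, against 8.6% of all 12729 tested genes. The pathway as a whole was thus not set apart by this count. For Pcna the response in KO exceeded that in WT by 1.11 (SE 0.0774, limma adjusted p = 1.67e-06), and without any 1 of the 12 libraries the value stayed between 1.07 and 1.16 and was called each time. For Rfc1 the response in KO differed from that in WT by -0.22 (SE 0.0595, limma adjusted p = 0.0322), and the call was lost in 8 of the 12 leave-outs. A difference in the response of Msh3 was not called (limma adjusted p = 0.0835).

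Among the glycosylases 4 fell in both genotypes: Ung (-1.42 in each), Neil3 (-1.30 in WT and -2.27 in KO), Mutyh, which removes adenine opposite oxidised guanine (-1.09 and -1.73), and Nthl1 (-0.48 and -0.55). Neil2 fell in KO (-0.72). Smug1 rose in WT (0.35) and Ogg1, the 8-oxoguanine glycosylase, in KO (0.48), neither called with the same total. After the glycosylase, the gap-filling polymerase Polb rose by 0.99 and 0.96 and the end-processing gene Aptx by 0.60 and 0.66. The mitochondrial polymerase gene Polg fell (-0.78 and -0.81), as did the strand-break sensor Parp1 (-0.74 in each genotype) and Tdp1 (-0.79 and -0.90).

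In the checkpoint list, of 12 genes, 2 rose and 6 fell in WT, and 3 rose and 6 fell in KO. Over all tested genes 62.8% were called in WT and 66.6% in KO, so these counts do not set the list apart. Those that fell included Clspn (-1.29 and -1.71), Chek1 (-1.13 and -1.35), Topbp1 (-0.65 and -0.41), Atr (-0.52 and -0.81) and Chek2 (-0.57 and -0.54). Rad9a, a subunit of the checkpoint clamp, rose by 0.48 and 0.65. Trp53 rose by 0.23 in each genotype and Rad17 by 0.19 in KO. With the same total Trp53 in KO was at -0.16 and Rad17 at -0.20, both called lower, and the rise of Trp53 in WT was not called. With the same upper quartile none of these 3 rises was called. The replication list had 2 higher and 12 lower in WT (median -0.91), and 4 higher and 8 lower in KO (median -0.30).

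The neighbours of Mgmt on chromosome 7 were read as a check on the locus. Glrx3, a glutaredoxin gene, was not called in any comparison as deposited, but with the same total it was lower with DMXAA in WT (-0.32) and KO (-0.45), and in KO also with the same upper quartile (-0.19). Mki67, which encodes the proliferation antigen Ki-67, was lower in KO under DMSO (-0.97) and DMXAA (-1.05) and fell with DMXAA in WT (-1.34) and KO (-1.42), so it moved in the same 4 directions as Mgmt. Ptpre, a receptor phosphatase gene, was not called under DMSO (-0.03) and was higher in KO under DMXAA (0.36). It fell with DMXAA in WT (-0.58) and in KO (-0.19), and the responses differed by 0.39 (limma adjusted p = 0.00369 for the interaction). Ebf3 had too few reads to be tested, and Clrn3 was not analysed here.

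The genes whose log2 levels over the 12 libraries were most like Mgmt, among 9814 genes with a mean of at least 100 in every table, were Stmn1 (Pearson r = 0.97), Trim68 (0.96), Tk1 (0.958), Mical2 (0.958) and Pcp4l1 (0.957). Stmn1 encodes the microtubule regulator stathmin and Tk1 the thymidine kinase of S phase. All 5 had the order WT under DMSO highest and KO under DMXAA lowest, as Mgmt had, with KO under DMSO and WT under DMXAA between. These 12 points share the 4 group differences: within groups r was 0.621, 0.75, 0.405, 0.546 and 0.668, so the likeness is a description and has no test.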

How the data were processed

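Poly(A)-enriched, strand-specific mRNA libraries were made from 12 macrophage RNA samples, per the labels' protocols. Reads were aligned to mm10 with HISAT2 and counted with featureCounts, per the submitters' processing notes; their versions and strand setting are not given in the sources used here. Deposited were normalized counts, a signal the authors scaled within each of 4 tables of 6 libraries, so a library has another value in each of its 2 tables. Dividing by the smallest step of a library recovered whole reads at 100% of values within 0.01, and these reads agreed between tables for all 182112 values compared. The authors' deposited comparison tables give log2 fold changes, their errors, a test score per gene and p-values, which were used only as a check.

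Within the table holding both groups, limma 3.58.1 (R 4.3.3; lmFit, eBayes with a trend) was fitted to log2(normalized count + 1), which understates changes of low genes, for genes with a mean of at least 10. Genes were called at a two-sided Benjamini-Hochberg adjusted p below 0.05 over all tested genes. The interaction subtracted the genotype difference in DMSO from that in DMXAA, over all 12 libraries. Errors are standard errors for log2 values and SD for levels, and n is 3 libraries a group. Alternatives were a pseudocount of 8, no filter, libraries rescaled to the same total or upper quartile, edgeR 4.0.16 (quasi-likelihood) and DESeq2 1.42.0 on recovered reads, replicate blocks, and leaving out each library. The fit was also run on simulated data with few changed genes, which does not bear on the scaling of the DMXAA responses.

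The members and all gene lists were chosen with earlier results of these data known. Named are the 7 members, in each repair list the called genes where 5 or fewer were called and otherwise the 3 of smallest p in each direction, and the 5 genes most correlated with Mgmt; a few others are given for comparison, and some results are not reported here. Positions are from GENCODE vM21, where 16065 of 16516 symbols (97.3%) had 1 position.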

Additional observations from a re-analysis of the deposited data

Results flagged for a closer look

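Pcna, the sliding clamp of replication and mismatch repair, answered DMXAA differently in the 2 genotypes by the test of the difference itself: the log2 response in KO minus that in WT was 1.11. It stood at 20309 ± 1307 normalized counts under DMSO and 18844 ± 892 under DMXAA in WT, and at 11902 ± 489 and 23815 ± 898 in KO. Rfc1, the large subunit of the clamp loader, differed by -0.22: it went from 7212 ± 194 to 14428 ± 284 in WT and from 7575 ± 156 to 13017 ± 508 in KO.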

How the results depend on the processing

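Mgmt was called lower in all 4 comparisons under every alternative: over the left-out libraries its log2 value ranged from -1.003 to -0.71 (KO over WT, DMSO), -1.30 to -0.88 (DMXAA), -1.12 to -0.92 (response in WT) and -1.51 to -1.09 (in KO). For KO over WT under DMSO the members called went from 1 to 2 with DESeq2 and ranged from 1 to 2 over the left-out libraries, by Msh6. For the response in KO they went from 4 to 2 with the same upper quartile and to 5, all lower, with the same total, and ranged from 2 to 4 over the left-out libraries. For the interaction, pathway genes called ranged from 1 to 3.

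Values that changed sign, none called as reported except Alkbh1 and Alkbh3 in KO: with the same total, in WT, Alkbh3 -0.085, Mpg -0.074 and Pms2 -0.18; in KO, Alkbh1 -0.052, Alkbh3 -0.20, Mpg -0.30 and Pms2 -0.32; for the interaction, Alkbh2 -0.035 and Msh6 -0.021. With the same upper quartile in KO, Mpg was -0.036 and Pms2 -0.062. Over the left-out libraries, KO over WT ranged for Alkbh3 under DMSO from -0.11 to 0.037, and under DMXAA for Alkbh1 from -0.30 to 0.032 and Mpg from -0.084 to 0.0031. The response of Pms2 in KO ranged from -0.032 to 0.19. The interaction ranged from -0.15 to 0.19 (Alkbh1), -0.11 to 0.14 (Alkbh2), -0.12 to 0.032 (Alkbh3), -0.039 to 0.16 (Msh6) and -0.17 to 0.053 (Pms2). The cause was not tested.

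With the replicate number of the titles as a block, genes called went from 2129 to 1915, 2686 to 2491, 8007 to 7865, 8462 to 8267 and, for the interaction, 1095 to 989. Mgmt's value stayed at -0.83, -1.11, -1.04, -1.32 and -0.28, and among members only Alkbh2 in WT lost its call. With group means removed, correlations of same-numbered libraries ran from -0.0978 to 0.122. In the WT response every library correlated best with its own number (0.0361, 0.0532 and 0.122). In each other comparison some libraries did not, so the numbers were not taken as pairs. The numerals of the library names, shared by 2 libraries a group, gave 6893 and 8001 called genes for the responses, and Pms2 in KO at -0.11; members went to 1 higher (Alkbh3) and 2 lower in WT and to 0 higher and 3 lower in KO, where Alkbh1 and Alkbh3 lost their calls and Alkbh2 gained one. Depth limits Mgmt in KO under DMXAA to 33 to 61 reads a library.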
